A study of Mus musculus with 8 samples.

Results

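The comparison described here sets the livers of mice given carbon tetrachloride (CCl4) with erlotinib 2 mg against the livers of mice given CCl4 alone. Its members were taken by treatment label from a table of non-normalized probe intensities: 2 arrays of CCl4 with erlotinib 2 mg and 2 arrays of CCl4, which are 4 of the 8 arrays of the study, and all 23978 of 25697 probes that carry a gene symbol. All animals were male A/J mice, an inbred laboratory strain. Vehicle arrays came from mice given vehicle without CCl4, and all other arrays from mice given 40% CCl4 in olive oil, 0.1 cc by gavage 3 times a week for 18 weeks, either alone, with erlotinib 2 mg or with erlotinib 5 mg. The treatment protocol puts death in week 19 after a washout of 1 week, whereas the sample source reads week 18. The unit of body weight, the route and the schedule behind the erlotinib doses are not stated in the labels, which also leave unsaid whether a group's 2 arrays stand for separate animals. RNA was extracted from frozen liver outside tumours, so it stands for all cells of that tissue, and fewer cells of a type and less RNA per cell cannot be told apart.

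Erlotinib is a kinase inhibitor of the receptor for epidermal growth factor (EGF). This receptor in liver is abundant on hepatocytes and, once bound by ligands such as EGF, amphiregulin or heparin-binding EGF, signals through the MAP kinase and AKT pathways to growth and survival genes. CCl4 is turned into a reactive radical by cytochrome P450 enzymes, chiefly Cyp2e1 of the hepatocytes around the central vein. The radical damages membranes of the endoplasmic reticulum (ER), and repeated dosing leads to hepatocyte death, regeneration, activation of stellate cells to collagen-producing myofibroblasts and fibrosis.

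Median raw intensity was 99.8 to 130 per array, and 23% to 26.1% of probes lay above a background limit set at the 99th percentile of 1326 probes for odorant, vomeronasal and related receptors. On the log2 scale used below, that limit was 6.37 to 6.45. The 2 arrays of a group correlated at 0.984 (CCl4, and again erlotinib 2 mg) to 0.988 (vehicle) over the 11022 genes tested, each through its brightest probe, and 4400 of these genes were under background on every array. The tissue label was checked against hepatocyte markers: all 10 that were tested were above background, and their summed level (as log2) was 15.9 to 16.2 on all 8 arrays.

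Of 11022 genes tested with limma, 945 (8.57%) passed a Benjamini-Hochberg adjusted p of 0.05: 458 (4.16%) were higher and 487 (4.42%) lower with erlotinib 2 mg. At least 2-fold differences were reached by 84 of the higher and 75 of the lower genes. Counts of list members that passed, given below, are to be read beside the 8.57% of all genes. All 945 had groups that did not overlap, as did 4871 (44.2%) of all genes tested, and the median difference over all genes was -0.00083. Below, "rose" and "fell" mean that a gene passed this test with erlotinib 2 mg against CCl4, levels are log2 normalized intensities, and a difference is the log2 difference between erlotinib 2 mg and CCl4 ± the standard error of the limma fit, with 2 arrays a group. With each array scaled by its median instead of quantile normalization, 157 genes passed, 59 higher and 98 lower, so that 37.6% of the calls were higher against 48.5% with quantile normalization. The 945 differences kept their sign under this scaling and under the other 13 alternatives wherever the gene was tested. Without CCl4 replicate 2, 520 genes passed. Of 215 genes named by rule that passed, 80 did so with median scaling too, and 70 kept the call under all 14 alternatives. The lost calls named below do not cover every alternative, and those with median scaling are mostly left out.

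**Figure D1:**
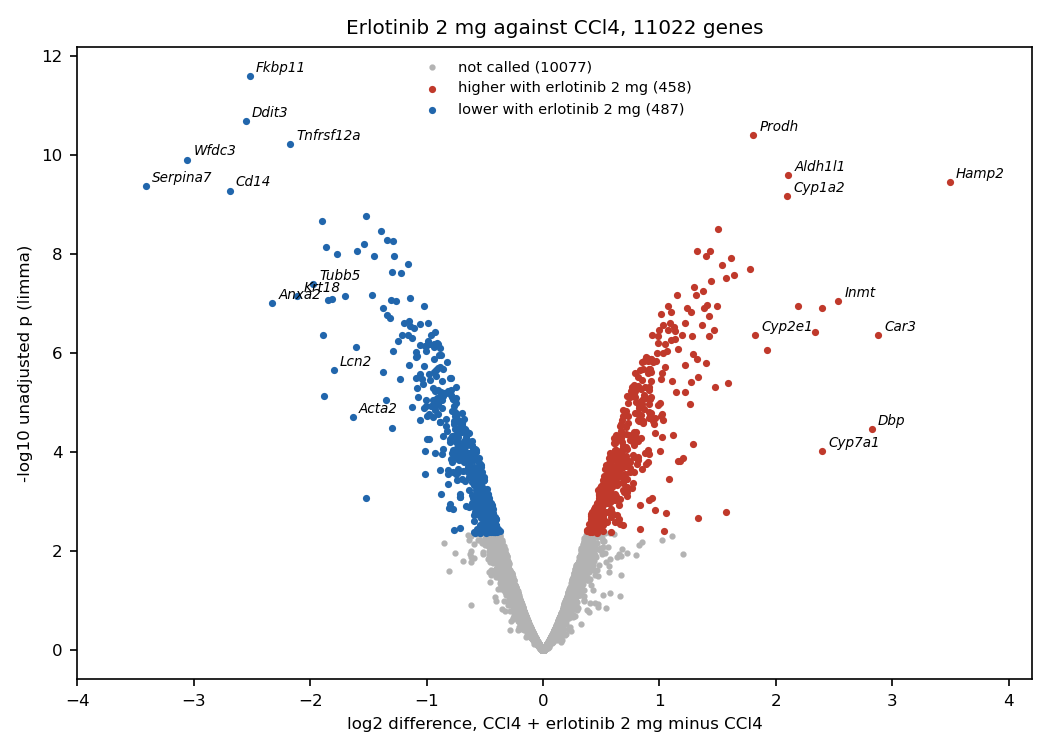
Difference (x axis, log2, erlotinib 2 mg minus CCl4) against the unadjusted limma p-value (y axis, -log10) for 11022 genes, with the 458 called higher in red, the 487 called lower in blue and the rest in grey. The labelled genes are the larger differences named in the text, from -3.41 for Serpina7 to 3.49 for Hamp2.

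The largest fall was that of Serpina7, which encodes thyroxine-binding globulin. It read 10.21 and 10.95 on the CCl4 arrays and 6.98 and 7.37 on the erlotinib 2 mg arrays, and the vehicle arrays read 6.67 and 6.69. The CCl4 arrays stood far above all 6 others, and the difference was -3.41 ± 0.25 (adjusted p = 5.74e-07). Wfdc3, a secreted WAP-domain protein, read 9.03 and 9.89 on the CCl4 arrays and 6.38 and 6.42 on the erlotinib 2 mg arrays, where 1 of the latter was under the background limit. Its difference of -3.06 ± 0.21 is therefore less certain in size. Tnfrsf12a, the receptor for the cytokine TWEAK, read 8.78 and 9.17 on the CCl4 arrays and 6.96 and 6.64 on the erlotinib 2 mg arrays, with vehicle arrays at 6.41 and 6.42 and a difference of -2.17 ± 0.14 (adjusted p = 1.64e-07). Other falls among the 20 largest were of Sgk1, a serum- and glucocorticoid-inducible kinase (-1.86 ± 0.17), Tgm2, a transglutaminase that crosslinks proteins (-1.85 ± 0.20), Srm, the spermidine synthase (-1.77 ± 0.16), and Fgl1, a fibrinogen-like protein secreted by hepatocytes (-1.70 ± 0.18). Fgl1 read 8.77 and 8.40 with erlotinib 2 mg, below the vehicle arrays at 9.39 and 9.15, but this second difference missed the threshold (adjusted p = 0.0502). The calls on Serpina7, Wfdc3, Tnfrsf12a, Sgk1, Srm and Fgl1 held under all 14 alternatives. Tgm2 (adjusted p = 0.0629) lost the call with median scaling.

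The largest rise was that of Hamp2, a paralog of the iron hormone hepcidin. It read 7.27 and 7.61 on the CCl4 arrays and 10.86 and 11 on the erlotinib 2 mg arrays. The erlotinib arrays lay above both CCl4 arrays and at or above the vehicle arrays (9.73 and 10.59), with a difference of 3.49 ± 0.26 (adjusted p = 5.35e-07). The probe of Hamp, hepcidin itself, read 9.53 and 10.17 on the CCl4 arrays and 9.30 and 9.16 on the erlotinib 2 mg arrays, a difference of -0.62 ± 0.37 that did not pass (adjusted p = 0.456). It passed when only the arrays compared were fitted (adjusted p = 0.0489), and was at -0.94 without CCl4 replicate 1 and -0.30 without CCl4 replicate 2. The 2 genes are near copies, and how far each probe reads the other was not tested. Car3, the muscle and liver carbonic anhydrase, read 8.98 and 7.15 on the CCl4 arrays and 11.03 and 10.86 on the erlotinib 2 mg arrays. The 2 CCl4 arrays lay far apart, both were below the others, and the difference was 2.88 ± 0.35 (adjusted p = 5.34e-05). Rises among the 20 largest also included Upp2, a uridine phosphorylase (2.39 ± 0.27), Rgs16, a brake on G protein signalling (1.92 ± 0.25), Dcxr, a carbonyl reductase (1.64 ± 0.16), Pank1, a pantothenate kinase of coenzyme A synthesis (1.57 ± 0.16), and Hebp1, a heme-binding protein (1.54 ± 0.15). Of these, Pank1 has another probe that read a difference of 0.13 and was above background on 1 array. The calls on Hamp2, Upp2, Dcxr, Pank1 and Hebp1 held under all 14 alternatives. Car3 (adjusted p = 0.091) lost the call with an intensity trend and robust prior and Rgs16 (0.0938) with median scaling.

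**Figure D2:**
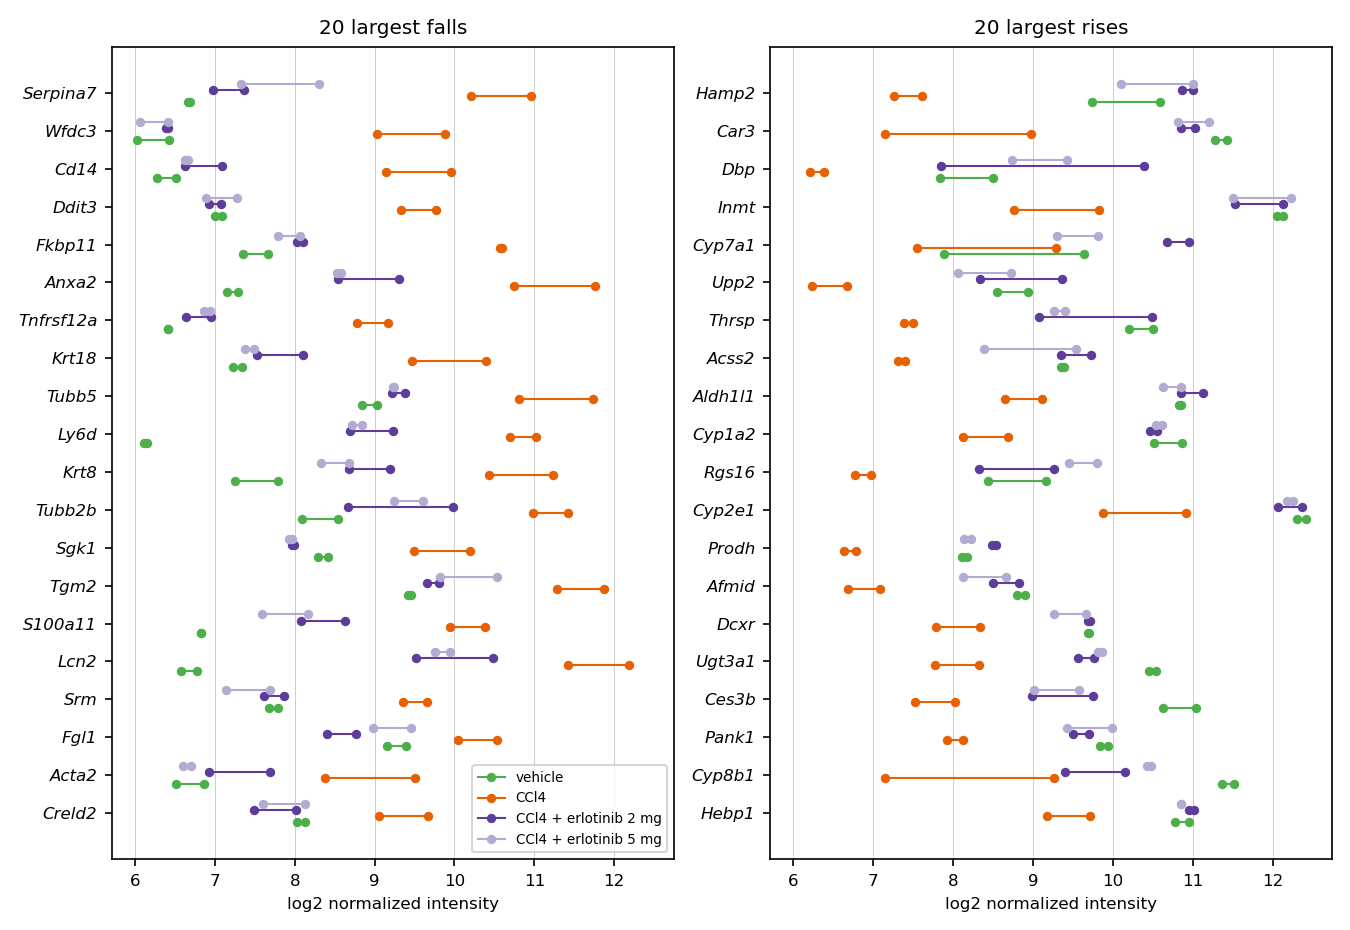
Log2 normalized intensity (x axis) of the 20 largest falls and the 20 largest rises (y axis), each array a point and each pair of replicate arrays joined by a line, coloured by group. The CCl4 and erlotinib 2 mg pairs do not overlap for any gene shown, though for Cyp8b1 the nearest arrays read 9.26 and 9.40, and the spread within a pair is widest for Dbp and Cyp8b1.

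The EGF receptor is the target of the drug. Its gene, Egfr, read 7.84 and 8.77 on the CCl4 arrays and 8.35 and 9.07 on the erlotinib 2 mg arrays, against vehicle arrays at 9.77 and 9.52. The CCl4 and erlotinib ranges overlapped, and the difference of 0.41 ± 0.24 did not pass (adjusted p = 0.441); 3 other Egfr probes gave 0.17, 0.13 and -0.03. The value turned to -0.06 without CCl4 replicate 1, and without CCl4 replicate 2 it was 0.87 and passed (adjusted p = 0.031). The ligand gene Hbegf differed by 0.30 ± 0.12 and the feedback inhibitor gene Errfi1, whose product binds and silences the receptor kinase, by -0.51 ± 0.18, and neither passed (adjusted p = 0.172 and 0.1). Errfi1 passed without erlotinib 2 mg replicate 2 (-0.84, adjusted p = 0.012) and was at -0.19 without erlotinib 2 mg replicate 1. The Egf probe was under background on every array, and Erbb3 is not analysed here. Among the 12 tested genes of the receptor family, its ligands and adaptors, 0 rose and 1 fell, the ligand gene Nrg1 at -0.63 ± 0.12, with a list median of 0.01 that changed sign under 6 of the 14 alternatives. Of 16 tested immediate early and MAP kinase feedback genes, 0 rose, 1 fell and 15 did not pass the test, with a median of -0.12. The gene that fell, Atf3 at -0.88 ± 0.15, is a stress-induced transcription factor. The shares that passed, 8.33% and 6.25%, were close to the 8.57% of all genes, so the counts single out neither list. The MAP kinase phosphatase gene Dusp6, a feedback target of the ERK pathway, differed by -0.85 ± 0.27 without passing (adjusted p = 0.0696), and Egr1 by 0.23 ± 0.12 (adjusted p = 0.37). The call on Atf3 held under all 14 alternatives. Nrg1 (adjusted p = 0.0516) lost the call without CCl4 replicate 2 and Nrg1 (0.0533) without erlotinib 2 mg replicate 2.

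Some cell cycle genes fell. Ccnd1, which encodes cyclin D1 and is a target of growth factor signalling, read 11.48 and 10.93 on the CCl4 arrays and 10.15 and 10.23 on the erlotinib 2 mg arrays, while the vehicle arrays read 8.32 and 8.42. Both erlotinib arrays lay between the CCl4 and the vehicle arrays, with a difference from CCl4 of -1.02 ± 0.22 (adjusted p = 0.00579) and from vehicle of 1.82 ± 0.22 (adjusted p = 0.000107); 2 other Ccnd1 probes gave -0.56 and -1.05 against CCl4. Of 19 tested cell cycle genes, 5 fell and 1 rose (31.6%, against 8.57% of all genes). The falls included Cdkn1a, the cyclin-dependent kinase inhibitor p21 (-1.22 ± 0.18), and the replication helicase subunits Mcm4, Mcm5 and Mcm2 (-0.66, -0.63 and -0.50). The rise was of Birc5, survivin (0.51 ± 0.14). Other Birc5 probes, above background on 4 and 2 arrays, gave 0.20 and 0.05, and with the mean of the probes Birc5 did not pass (0.25). Cdkn1a is also among 14 tested p53 targets and Gadd45 genes, of which 5 fell and 0 rose (35.7%), with a median of -0.23. These included Trp53inp1 (-1.15 ± 0.16), Gadd45g (-0.98 ± 0.16), Gadd45a (-0.86 ± 0.12; another probe gave -0.25) and Phlda3 (-0.49 ± 0.15). Cell cycle genes that fell numbered 2 without CCl4 replicate 2, 3 without erlotinib 2 mg replicate 1 and 1 with median scaling, against 5 in the analysis of all arrays. The calls on Cdkn1a, Trp53inp1 and Gadd45a held under all 14 alternatives. Ccnd1 (adjusted p = 0.0862), Birc5 (0.185) and Phlda3 (0.156) lost the call without CCl4 replicate 1, Mcm4 (0.067), Mcm5 (0.0642), Mcm2 (0.169), Birc5 (0.082) and Phlda3 (0.176) without CCl4 replicate 2, Ccnd1 (0.0621), Mcm2 (0.142) and Birc5 (0.362) without erlotinib 2 mg replicate 1 and Mcm5 (0.0553) and Phlda3 (0.478) without erlotinib 2 mg replicate 2. Birc5 moved to 0.33 without erlotinib 2 mg replicate 1, Phlda3 to -0.75 without erlotinib 2 mg replicate 1 and Phlda3 to -0.23 without erlotinib 2 mg replicate 2. Ccnd1 (adjusted p = 0.0762) lost the call with an intensity trend and robust prior and Ccnd1 (0.0716), Birc5 (0.0861) and Phlda3 (0.12) with the authors' processed values.

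When unfolded proteins build up, the ER sensors IRE1, ATF6 and PERK raise the genes for chaperones, foldases and ER export, and PERK, with other kinases of the integrated stress response, also raises the transcription factor genes Atf3 and Ddit3. Of 59 tested ER chaperone, foldase and translocation genes, 0 rose and 26 fell (44.1%, against 8.57% of all genes), with a list median of -0.41; 11 were under background on every array, and 5 fell with median scaling. The transcription factor gene Ddit3, which encodes CHOP and is tied to cell death under ER stress, read 9.33 and 9.77 on the CCl4 arrays and 7.07 and 6.92 on the erlotinib 2 mg arrays, and the vehicle arrays read 7.08 and 7.0. The erlotinib arrays thus stood at the vehicle level and the CCl4 arrays apart from all others, with a difference of -2.55 ± 0.15 (adjusted p = 1.11e-07). A second Ddit3 probe, above background on 2 arrays, gave -0.54. Fkbp11, an ER prolyl isomerase, read 10.60 and 10.57 on the CCl4 arrays and 8.03 and 8.10 on the erlotinib 2 mg arrays, against 7.35 and 7.67 with vehicle. Its CCl4 arrays were high and close together, and the difference was -2.52 ± 0.13 (adjusted p = 2.71e-08). The integrated stress response list, of which 11 of 25 tested genes read under background throughout, had 0 genes that rose and 6 that fell: Ddit3, Atf3, Nupr1, a stress-induced chromatin protein (-1.54 ± 0.14), Cebpb (-0.65 ± 0.13), Atf5 (-0.47 ± 0.13) and Ppp1r15a, the phosphatase subunit that ends the response (-0.45 ± 0.12). Integrated stress response genes that fell numbered 10 without CCl4 replicate 1 and 3 with median scaling, against 6 in the analysis of all arrays. The calls on Ddit3, Fkbp11 and Nupr1 held under all 14 alternatives. Atf5 (adjusted p = 0.126) and Ppp1r15a (0.164) lost the call without CCl4 replicate 1, Atf5 (0.124) and Ppp1r15a (0.0737) without CCl4 replicate 2, Cebpb (0.058) and Ppp1r15a (0.0881) without erlotinib 2 mg replicate 1 and Atf5 (0.267) and Ppp1r15a (0.16) without erlotinib 2 mg replicate 2. Atf5 (adjusted p = 0.053) lost the call with an intensity trend and robust prior.

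The ER stress response element, in which CCAAT and CCACG are parted by 9 bases, is a textbook mark of promoters bound by ATF6 with NF-Y. On either strand of the 300 bases from 250 before to 50 after the start, it was found in 15 of 8887 tested genes with a promoter in the RefSeq table (0.169%), and in 9 of 48 genes of the ER list (18.8%). Within that list it was found in 4 of 21 genes that fell (19.0%) and in 5 of 27 that did not pass (18.5%). The 4 promoters of genes that fell are shown because they hold this element and belong to genes that fell, with the element in capitals and coordinates of GRCm38.p6 (RefSeq). They belong to Creld2, a secreted ER stress factor (chr15:88819396-88819695, plus strand), Hsp90b1, the ER chaperone GRP94 (chr10:86705395-86705694, minus strand, with 2 elements), Dnajc3, an inhibitor of PERK (chr14:118937682-118937981, plus strand), and Syvn1, a ubiquitin ligase of ER-associated degradation (chr19:6046326-6046625, plus strand).
Creld2: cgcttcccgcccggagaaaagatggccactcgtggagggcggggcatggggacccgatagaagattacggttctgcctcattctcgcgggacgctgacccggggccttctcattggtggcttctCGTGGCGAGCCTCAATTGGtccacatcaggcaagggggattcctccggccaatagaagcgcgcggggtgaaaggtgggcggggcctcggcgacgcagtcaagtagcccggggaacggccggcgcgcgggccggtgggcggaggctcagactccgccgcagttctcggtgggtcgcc
Hsp90b1: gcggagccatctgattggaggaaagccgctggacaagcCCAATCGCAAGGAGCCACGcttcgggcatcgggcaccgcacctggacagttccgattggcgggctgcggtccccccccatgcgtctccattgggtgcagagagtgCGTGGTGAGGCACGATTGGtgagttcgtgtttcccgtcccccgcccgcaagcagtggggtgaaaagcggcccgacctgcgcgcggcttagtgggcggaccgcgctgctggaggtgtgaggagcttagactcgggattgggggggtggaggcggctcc
Dnajc3: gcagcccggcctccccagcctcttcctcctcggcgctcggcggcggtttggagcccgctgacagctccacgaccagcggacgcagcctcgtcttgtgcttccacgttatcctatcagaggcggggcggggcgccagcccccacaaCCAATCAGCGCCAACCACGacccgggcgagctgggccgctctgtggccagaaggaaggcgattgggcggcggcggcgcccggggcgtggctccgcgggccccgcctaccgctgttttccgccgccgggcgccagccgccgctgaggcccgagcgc
Syvn1: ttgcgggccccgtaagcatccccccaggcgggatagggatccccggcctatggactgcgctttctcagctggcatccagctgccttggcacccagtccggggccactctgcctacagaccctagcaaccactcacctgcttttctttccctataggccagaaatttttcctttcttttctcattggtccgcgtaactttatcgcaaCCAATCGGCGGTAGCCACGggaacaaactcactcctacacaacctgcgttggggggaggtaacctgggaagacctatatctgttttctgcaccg

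Of these genes, Creld2 read 9.05 and 9.67 on the CCl4 arrays and 7.48 and 8.02 on the erlotinib 2 mg arrays, with vehicle arrays at 8.12 and 8.03, and fell by 1.61 on the log2 scale (SE 0.20, adjusted p = 7.44e-05). Its erlotinib arrays were at or below the vehicle arrays. Hsp90b1, Dnajc3 and Syvn1 differed by -0.97, -0.75 and -0.53. By role, the falls covered the translocation pore and its partners, with Sec61a1 (-1.29 ± 0.11), Ssr2 (-1.25 ± 0.15) and Ssr3 (-1.19 ± 0.14), and the protein disulfide isomerases Pdia4, Pdia3 and P4hb (-0.91, -0.88 and -0.74). Edem2, which marks misfolded glycoproteins for degradation, fell by 1.08 through its brightest probe, while 3 other probes gave -0.29, -0.17 and -0.07. Some other genes of the response did not pass. Xbp1, the transcription factor that IRE1 activates by splicing, differed by -0.19 ± 0.17, Calr, the calcium-binding chaperone, by -0.65 ± 0.20 and Herpud1, a degradation factor, by -0.21 ± 0.24 (adjusted p = 0.681, 0.0523 and 0.767). The probe of Hspa5, the chaperone BiP, was under background on every array. The calls on Sec61a1 and Ssr2 held under all 14 alternatives.

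Of 55 tested ribosomal protein genes, 27 fell and 0 rose, with a median of -0.39, and the falls ranged from -1.02 for Rpl12 to -0.40 for Rplp1. Rpl12 read 9.91 and 9.90 on the CCl4 arrays and 8.92 and 8.84 on the erlotinib 2 mg arrays, and the vehicle arrays 8.56 and 8.67. The CCl4 arrays were the highest, and the difference was -1.02 ± 0.11 (adjusted p = 2.25e-05). Rps25, Rps13 and Rpl3 fell by similar amounts (-0.98 ± 0.18, -0.93 ± 0.11 and -0.90 ± 0.13). Ribosomal protein genes have many processed pseudogenes, so the probes may also read copies. Of 32 translation factors, 11 fell and 0 rose (median -0.30), among them the elongation factor subunit Eef1g (-1.06 ± 0.13), Eif6, which keeps ribosomal subunits apart (-0.97 ± 0.14), and Eif3d (-0.88 ± 0.12). Of 16 aminoacyl tRNA synthetases, which load tRNAs with amino acids, 7 fell and 0 rose (median -0.46), led by Gars, Rars and Kars (-0.79, -0.72 and -0.71). With median scaling, 1 ribosomal gene, 0 translation factors and 2 synthetases passed as lower, while the 3 list medians were -0.38, -0.25 and -0.52. Translation factors that fell numbered 5 without CCl4 replicate 2 and 5 without erlotinib 2 mg replicate 1, against 11 in the analysis of all arrays. The calls on Rpl12 and Rars held under all 14 alternatives. Kars (adjusted p = 0.137) lost the call without CCl4 replicate 1 and Kars (0.207) without erlotinib 2 mg replicate 2. Kars moved to -0.44 without erlotinib 2 mg replicate 2. Kars (adjusted p = 0.0735) lost the call with the authors' processed values.

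Of 26 cytosolic heat shock chaperone genes, 5 fell and 0 rose (19.2%, against 8.57% of all genes, median -0.25). They were the co-chaperones Bag3 (-1.01 ± 0.20) and Dnajb1 (-0.81 ± 0.21), the HSP70 members Hspa9 (-0.73 ± 0.15) and Hspa8 (-0.64 ± 0.16), and the chaperonin subunit Cct4 (-0.58 ± 0.17). A second Hspa8 probe, above background on 8 arrays, gave -0.19, and with the mean of the probes Hspa8 was at -0.42 and did not pass. Of 28 proteasome genes, 5 fell and 0 rose (17.9%, median -0.21), from -0.60 for the activator Psme3 to -0.41 for the ATPase subunit Psmc5. Another Psmc5 probe, above background on 8 arrays, gave 0.03, and with the mean of the probes Psmc5 was at -0.19 and did not pass. With median scaling none of the members of either list passed, where 5 and 5 passed with quantile normalization. Without CCl4 replicate 2, all 5 proteasome calls ended, with adjusted p of 0.0516 to 0.359. Heat shock genes that fell numbered 8 without CCl4 replicate 1, 0 without CCl4 replicate 2, 2 without erlotinib 2 mg replicate 1 and 2 without erlotinib 2 mg replicate 2, against 5 in the analysis of all arrays. Proteasome genes that fell numbered 0 without CCl4 replicate 2 and 2 without erlotinib 2 mg replicate 1, against 5 in the analysis of all arrays. Bag3 (adjusted p = 0.0514), Dnajb1 (0.35), Hspa9 (0.0815), Hspa8 (0.308) and Cct4 (0.599) lost the call without CCl4 replicate 2, Dnajb1 (0.0767), Hspa8 (0.229) and Cct4 (0.192) without erlotinib 2 mg replicate 1 and Bag3 (0.0541), Dnajb1 (0.159) and Cct4 (0.189) without erlotinib 2 mg replicate 2. Dnajb1 moved to -1.26 without CCl4 replicate 1, Cct4 to -0.95 without CCl4 replicate 1, Bag3 to -0.61 without CCl4 replicate 2, Dnajb1 to -0.35 without CCl4 replicate 2, Hspa8 to -0.39 without CCl4 replicate 2 and Cct4 to -0.22 without CCl4 replicate 2. Dnajb1 (adjusted p = 0.0946) lost the call with an intensity trend and robust prior and Dnajb1 (0.132), Hspa8 (0.107) and Cct4 (0.167) with the authors' processed values.

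Keratin, tubulin and actin-binding genes were among those that fell. Krt18 and Krt8 encode the keratin pair of hepatocyte intermediate filaments, which liver injury raises. Krt18 read 9.47 and 10.40 on the CCl4 arrays and 8.11 and 7.53 on the erlotinib 2 mg arrays, with vehicle arrays at 7.23 and 7.34. The erlotinib arrays lay above vehicle and far below CCl4, a difference of -2.11 ± 0.22 (adjusted p = 1.83e-05). Krt8 read 10.43 and 11.23 on the CCl4 arrays and 9.20 and 8.69 on the erlotinib 2 mg arrays, a difference of -1.89 ± 0.23 (adjusted p = 5.34e-05) in the same order of groups. No other of the 9 tested keratin and ductular markers passed, 5 of them were under background on every array, and the ductular transcription factor gene Sox9 was among those. Of 24 tubulin and actin cytoskeleton genes, 11 fell and 0 rose (median -0.41, and 6 fell with median scaling). Tubb5, a beta tubulin, read 10.81 and 11.74 on the CCl4 arrays and 9.38 and 9.22 on the erlotinib 2 mg arrays, where the erlotinib arrays stood just above vehicle (8.85 and 9.03) and the difference was -1.98 ± 0.20 (adjusted p = 1.25e-05). Tubb2b, another beta tubulin, read 10.99 and 11.42 on the CCl4 arrays and 9.98 and 8.66 on the erlotinib 2 mg arrays, with erlotinib arrays far apart yet below both CCl4 arrays (-1.88 ± 0.29), and a second probe gave -0.67. Tuba1b (-1.37 ± 0.19), Tubb4b (-1.35 ± 0.21) and the actin-binding thymosins Tmsb10 (-1.07 ± 0.17) and Tmsb4x (-1.06 ± 0.15) fell too. Tubulins are near copies of each other, and their probes may cross-read. The calls on Krt18, Krt8, Tubb5, Tuba1b, Tmsb10 and Tmsb4x held under all 14 alternatives. Tubb2b moved to -1.22 without erlotinib 2 mg replicate 2. Tubb2b (adjusted p = 0.136) lost the call with an intensity trend and robust prior.

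Annexins and S100 proteins are calcium-binding proteins of membrane repair and signalling, several of them raised in injured or transformed liver. Anxa2 read 10.74 and 11.76 on the CCl4 arrays and 9.31 and 8.54 on the erlotinib 2 mg arrays, and S100a11 9.95 and 10.38 on the CCl4 arrays and 8.63 and 8.08 on the erlotinib 2 mg arrays. For both genes the erlotinib arrays lay between the CCl4 and the vehicle arrays, which read 7.15 and 7.29 for Anxa2 and 6.83 and 6.83 for S100a11, and the differences from CCl4 were -2.32 ± 0.25 (adjusted p = 2.17e-05) and -1.81 ± 0.19 (adjusted p = 2.02e-05). Anxa5 (-1.52 ± 0.12) and Anxa3 (-1.03 ± 0.17) fell as well, S100a1 rose (0.93 ± 0.14), and 11 of 16 tested members did not pass. Ly6d, a membrane protein that injured hepatocytes express, read 10.70 and 11.03 on the CCl4 arrays and 9.23 and 8.70 on the erlotinib 2 mg arrays, against 6.15 and 6.12 with vehicle. The vehicle arrays were under the background limit, and the erlotinib arrays, though lower than CCl4 (-1.90 ± 0.16 (adjusted p = 1.94e-06)), stayed above vehicle (adjusted p = 2.08e-08). Lcn2, lipocalin 2, an iron-carrier protein of injured hepatocytes and neutrophils, read 11.42 and 12.18 on the CCl4 arrays and 10.49 and 9.52 on the erlotinib 2 mg arrays, with vehicle arrays at 6.78 and 6.58. It fell by 1.80 on the log2 scale (adjusted p = 0.000158) and remained above vehicle in the same way (adjusted p = 5.85e-07). The calls on Anxa2, S100a11, Anxa5, Anxa3 and Ly6d held under all 14 alternatives. Lcn2 (adjusted p = 0.0573) lost the call with an intensity trend and robust prior.

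Among fibrosis genes, the contractile myofibroblast gene Acta2 fell while the tested interstitial collagen transcripts did not pass the test. Acta2, the alpha smooth muscle actin of activated stellate cells, read 8.38 and 9.50 on the CCl4 arrays and 7.69 and 6.93 on the erlotinib 2 mg arrays, against 6.86 and 6.52 with vehicle and 6.60 and 6.71 with erlotinib 5 mg. The CCl4 arrays were the highest and far apart, and the difference was -1.63 ± 0.27 (adjusted p = 0.000806). Other Acta2 probes, above background on 3 and 2 arrays, gave -0.57 and -0.30. Of 18 tested stellate cell and myofibroblast markers, 2 fell, Acta2 and the tropomyosin gene Tpm1 (-1.31 ± 0.15), and 0 rose. The share that passed, 11.1%, was close to the 8.57% of all genes, so the count does not single out this list. The summed level (as log2) of these markers was 11.6 and 11.9 on the CCl4 arrays, 11.4 and 11.4 on the erlotinib 2 mg arrays and 11 on both vehicle arrays. Col1a1, the main chain of type I collagen, read 6.86 and 6.83 on the CCl4 arrays and 6.62 and 6.47 on the erlotinib 2 mg arrays, all close to the background limit, a difference of -0.30 ± 0.13 that did not pass (adjusted p = 0.214). The Col3a1 probe was under background on every array. None of the 7 tested interstitial collagen genes passed (median -0.06, range -0.30 to 0.31), under any of the 14 alternatives either. At an unadjusted limma p under 0.05, 2 of these 7 differed, as did 1991 of all 11022 genes. The call on Tpm1 held under all 14 alternatives. Acta2 moved to -1.07 without CCl4 replicate 2. Acta2 (adjusted p = 0.163) lost the call with an intensity trend and robust prior.

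Some matrix remodelling genes fell. Timp1, an inhibitor of matrix metalloproteinases that fibrotic liver makes in excess, read 7.48 and 7.80 on the CCl4 arrays and 6.64 and 6.38 on the erlotinib 2 mg arrays. Only 5 of 8 arrays, the 2 CCl4 arrays among them, were above background, and the difference was -1.13 ± 0.14 (adjusted p = 5.84e-05), with -1.13 from a second probe. Of 19 tested proteases, inhibitors and crosslinkers, 4 fell and 0 rose, the others being the lysyl hydroxylase gene Plod3 (-0.78 ± 0.16), P4hb (-0.74 ± 0.11), which is also on the ER list, and the collagenase gene Mmp13 (-0.67 ± 0.15). Of 14 basement membrane and glycoprotein genes, Nid1 (-0.90 ± 0.14), Tnc (-0.55 ± 0.12) and Col4a2 (-0.49 ± 0.13) fell and Col18a1 rose (0.51 ± 0.13). The probes read for Mmp13 and Tnc were above background on 3 and 2 of 8 arrays. With the mean of the probes, Tnc was at -0.27 and did not pass. Col4a1 differed by -0.36 ± 0.12 without passing (adjusted p = 0.0908, but 0.0424 without background correction). No gene of 16 TGF-beta ligands, receptors and targets passed with quantile normalization: Tgfb1, the chief profibrotic cytokine, differed by -0.16 ± 0.12 (adjusted p = 0.553), and Ccn2, the connective tissue growth factor gene, by -0.62 ± 0.21 (adjusted p = 0.0903). At an unadjusted p under 0.05, 4 of the 16 differed. The list median was 0.02 and changed sign under 6 of 14 alternatives. The calls on Timp1 and Nid1 held under all 14 alternatives. Plod3 (adjusted p = 0.0897), Mmp13 (0.152), Tnc (0.114), Col4a2 (0.228) and Col18a1 (0.303) lost the call without CCl4 replicate 2, Plod3 (0.063), Mmp13 (0.107), Col4a2 (0.13) and Col18a1 (0.128) without erlotinib 2 mg replicate 1 and Tnc (0.0575), Col4a2 (0.102) and Col18a1 (0.0876) without erlotinib 2 mg replicate 2. Plod3 moved to -0.51 without CCl4 replicate 2 and Col18a1 to 0.33 without CCl4 replicate 2.

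Macrophage markers fell in part. Cd14, the co-receptor for bacterial lipopolysaccharide, which Kupffer cells and also stressed hepatocytes express, read 9.15 and 9.96 on the CCl4 arrays and 7.09 and 6.63 on the erlotinib 2 mg arrays, and the vehicle arrays 6.28 and 6.52. The CCl4 arrays stood apart from all others, and the difference was -2.69 ± 0.20 (adjusted p = 6.31e-07). Of 21 tested Kupffer cell and macrophage markers, 5 fell and 0 rose (23.8%, against 8.57% of all genes). They were Cd14, the tetraspanins Cd63 (-1.39 ± 0.12) and Cd9 (-0.78 ± 0.15), galectin 3, Lgals3 (-1.31 ± 0.14), and Laptm5 (-0.71 ± 0.12). Defining resident markers did not pass, with Clec4f at 0.04 and Vsig4 at 0.0. Gpnmb and Trem2, genes of scar-associated macrophages, differed by -0.27 and -0.07 without passing, and Gpnmb read 8.18 and 8.49 on the CCl4 arrays and 8.04 and 8.08 on the erlotinib 2 mg arrays, all above the vehicle arrays at 6.11 and 6.04. The summed level (as log2) of the list was 13 and 12.9 on the CCl4 arrays, 12.6 and 12.3 on the erlotinib 2 mg arrays and 11.5 on both vehicle arrays. None of 11 T and NK cell markers passed, 7 of them under background on every array, and both tested B cell markers were under background throughout. Of 8 neutrophil markers, Lcn2, which hepatocytes also make, fell (12.5%, against 8.57% of all genes). The others did not pass, with Mpo and Elane under background on every array. Of 25 endothelial markers, 1 fell, Plvap (-0.53 ± 0.12), and 0 rose (4% passed, against 8.57% of all genes). Their summed level was 11.8 to 12 on the CCl4 and erlotinib 2 mg arrays. The part of cell numbers in these differences was not tested. The calls on Cd14, Cd63 and Lgals3 held under all 14 alternatives. Plvap (adjusted p = 0.102) lost the call without CCl4 replicate 2 and Cd9 (0.0565) and Plvap (0.0746) without erlotinib 2 mg replicate 2. Cd9 moved to -0.50 without erlotinib 2 mg replicate 2.

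Of 37 tested interferon response genes, 5 fell (13.5%, against 8.57% of all genes) and 0 rose (median -0.11). The falls were of the immunity-related GTPases Igtp (-1.29 ± 0.23) and Irgm1 (-0.74 ± 0.14), the ubiquitin-like modifier Isg15 (-0.93 ± 0.15), its protease Usp18 (-0.76 ± 0.22) and the antiviral enzyme Rsad2 (-0.70 ± 0.12). Other Usp18 probes, above background on 8 and 6 arrays, gave -0.48 and -0.14. With the mean of the probes, Usp18 was at -0.46 and did not pass. None of 17 antigen presentation genes passed (2 at an unadjusted p under 0.05, with a median of -0.05 that changed sign under 3 alternatives), while 4 fell without CCl4 replicate 2. Of 17 chemokine and adhesion genes, Cxcl14 (-0.56 ± 0.14), Cxcl16 (-0.42 ± 0.12) and Ccl4 (-0.42 ± 0.12), all of them chemokines, fell (17.6%, against 8.57% of all genes). The probes read for Cxcl14 and Ccl4 were above background on 3 and 2 of 8 arrays. With the mean of the probes, Ccl4 was at -0.24 and did not pass. Among 25 acute phase and metallothionein genes, Lcn2, Lrg1 (-1.21 ± 0.15), the fibrinogen chains Fgg (-0.90 ± 0.12) and Fga (-0.55 ± 0.12) and the transcription factor gene Cebpb fell, and the serum amyloid gene Saa4 rose (0.91 ± 0.15). The share of these 25 genes that passed was 24%, against 8.57% of all genes. Hepatocytes secrete most products of the acute phase list. Orm2, an acid glycoprotein of that list, did not pass against CCl4 (0.14 ± 0.19) and read 9.92 and 9.43 with erlotinib 2 mg against 7.20 and 7.58 with vehicle. Acute phase genes that fell numbered 9 without CCl4 replicate 1, 3 without erlotinib 2 mg replicate 1 and 1 with median scaling, against 5 in the analysis of all arrays. The calls on Isg15 and Rsad2 held under all 14 alternatives. Cxcl16 (adjusted p = 0.354) and Ccl4 (0.127) lost the call without CCl4 replicate 1, Usp18 (0.422), Cxcl14 (0.192), Ccl4 (0.149) and Fga (0.056) without CCl4 replicate 2, Cxcl14 (0.131), Cxcl16 (0.0956), Ccl4 (0.305) and Fga (0.0742) without erlotinib 2 mg replicate 1 and Usp18 (0.519) and Cxcl16 (0.224) without erlotinib 2 mg replicate 2. Igtp moved to -0.85 without CCl4 replicate 1, Cxcl16 to -0.27 without CCl4 replicate 1, Usp18 to -0.50 without CCl4 replicate 2, Usp18 to -1.24 without erlotinib 2 mg replicate 1 and Usp18 to -0.28 without erlotinib 2 mg replicate 2. Igtp (adjusted p = 0.0551) and Usp18 (0.276) lost the call with an intensity trend and robust prior and Usp18 (0.175) and Cxcl16 (0.0544) with the authors' processed values.

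**Figure D3:**
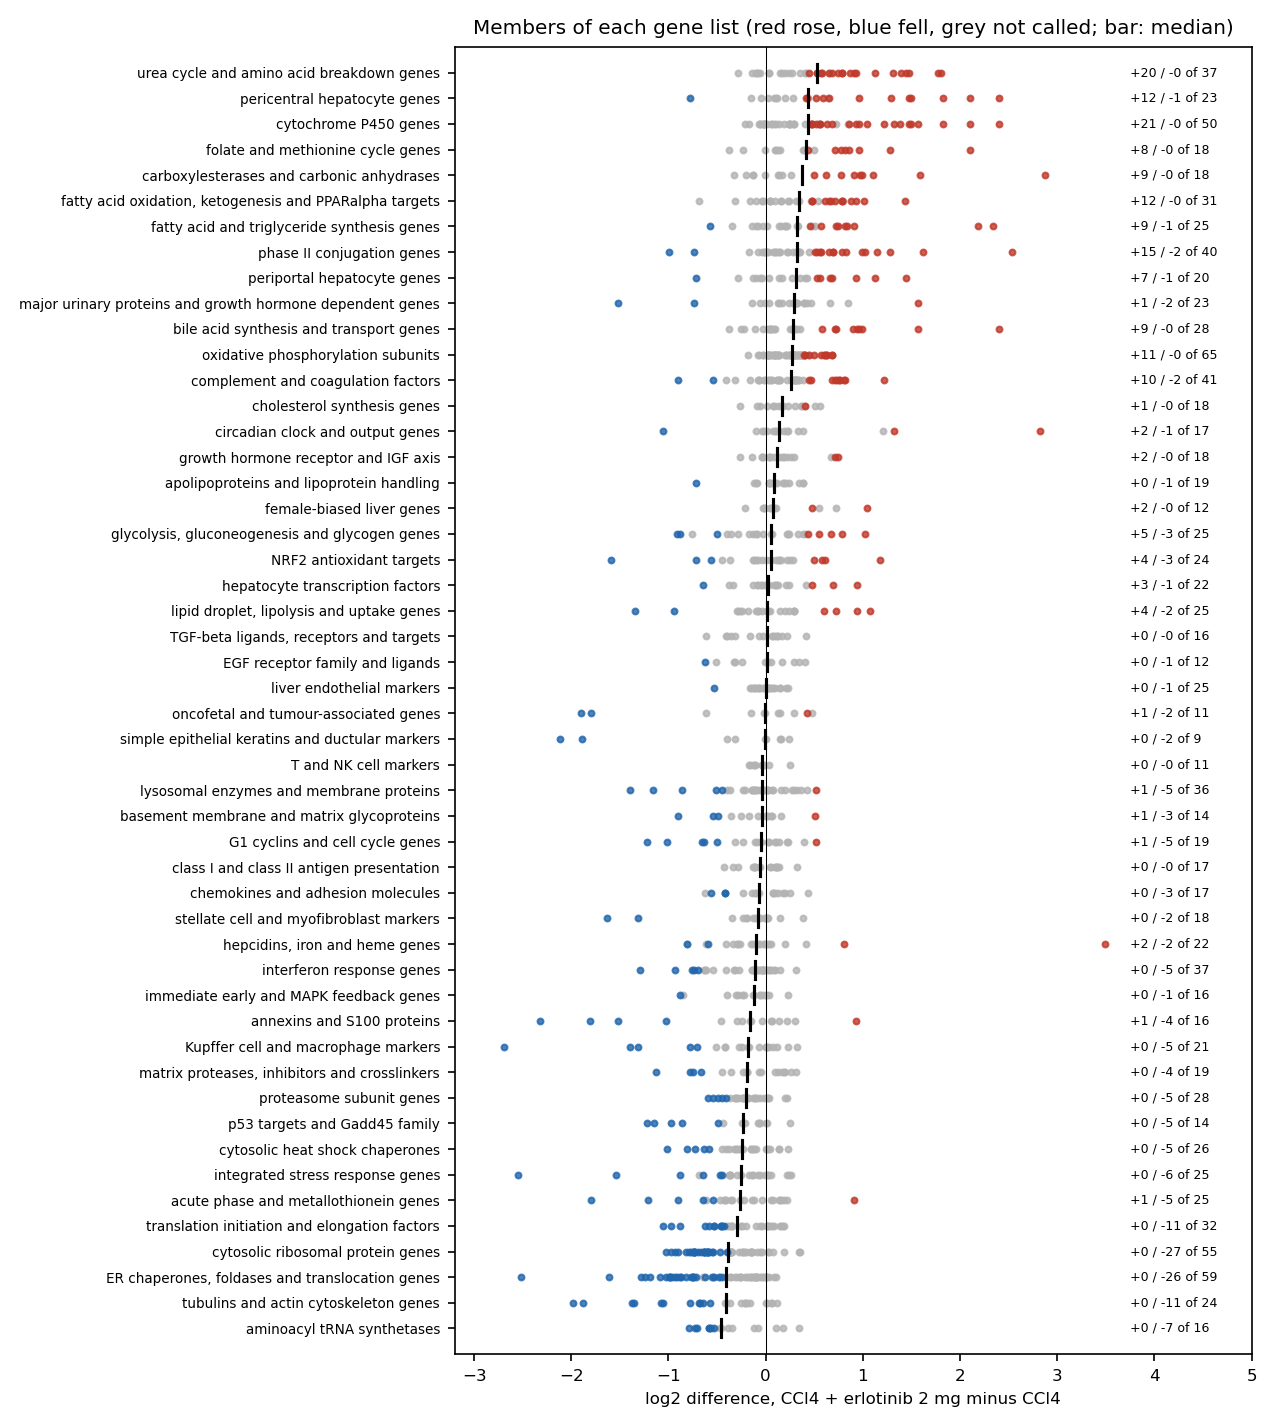
Log2 difference (x axis, erlotinib 2 mg minus CCl4) of each tested member of the gene lists with at least 9 tested genes (y axis, ordered by median), with members that rose in red, that fell in blue and that did not pass in grey, a bar at the list median and the counts at the right. The aminoacyl tRNA synthetases lie at the bottom with a median of -0.46, and the urea cycle and amino acid genes at the top with 0.53.

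Many genes of drug and toxin metabolism rose. Cyp2e1, the pericentral P450 that activates CCl4, read 10.92 and 9.88 on the CCl4 arrays and 12.07 and 12.37 on the erlotinib 2 mg arrays, against 12.42 and 12.31 with vehicle. The erlotinib arrays were at the vehicle level and the CCl4 arrays below, by 1.82 ± 0.22 (adjusted p = 5.34e-05). Cyp1a2, the caffeine-metabolizing P450, read 8.68 and 8.13 on the CCl4 arrays and 10.55 and 10.46 on the erlotinib 2 mg arrays, with vehicle at 10.87 and 10.52 and a difference of 2.10 ± 0.16 (adjusted p = 7.39e-07). Its groups stood in the same order as those of Cyp2e1. Of 50 tested P450 genes and regulators, 21 rose and 0 fell, with a median of 0.44 and 8 under background on every array; with median scaling 7 rose. They included Cyp2c37 (1.49 ± 0.16) and Cyp2c50 (1.47 ± 0.18), whose near copies in the Cyp2c family may be read by the same probes. The nuclear receptor genes Nr1i3 (CAR) and Nr1i2 (PXR), which drive many of these P450s, were at 0.09 ± 0.12 (adjusted p = 0.831) and under background on every array. Cyp7b1, an oxysterol hydroxylase higher in males, read 7.68 and 7.34 on the CCl4 arrays and 7.76 and 7.85 on the erlotinib 2 mg arrays. All these arrays were far below the vehicle arrays at 11.34 and 10.75, and the difference from CCl4 was 0.29 ± 0.17 (adjusted p = 0.435). P450 genes that rose numbered 11 without CCl4 replicate 2 and 13 without erlotinib 2 mg replicate 2, against 21 in the analysis of all arrays. The calls on Cyp2e1, Cyp1a2 and Cyp2c37 held under all 14 alternatives.

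Of 40 phase II conjugation genes, 15 rose and 2 fell (median 0.32). Inmt, an amine N-methyltransferase, read 9.83 and 8.76 on the CCl4 arrays and 11.53 and 12.13 on the erlotinib 2 mg arrays, with vehicle at 12.13 and 12.06 and a difference of 2.54 ± 0.27 (adjusted p = 2.04e-05). The erlotinib arrays reached the vehicle level. Ugt3a1 (1.62 ± 0.15), Gnmt, the glycine N-methyltransferase (1.28 ± 0.14), and the mitochondrial glutathione transferase Gstk1 (1.15 ± 0.12) also rose. The members that fell were the glutathione transferases Gsta1 (-1.0 ± 0.18) and Gstp1 (-0.74 ± 0.14), of which Gsta1 is a target of the oxidant sensor NRF2. Of 18 carboxylesterase, paraoxonase and carbonic anhydrase genes, 9 rose and 0 fell (median 0.38), with Car3, Ces3b (1.59 ± 0.23), Ces1b (1.10 ± 0.14) and the paraoxonase gene Pon1 (1.0 ± 0.12) among them. NRF2 targets went both ways, with 4 of 24 higher and 3 lower: sulfiredoxin, Srxn1, fell (-1.60 ± 0.15, and -0.52 from a second probe), while catalase, Cat, rose (1.17 ± 0.24), and Nqo1, a common readout of NRF2, differed by 0.05 ± 0.12 (adjusted p = 0.918). Conjugation genes that rose numbered 7 with median scaling, against 15 in the analysis of all arrays. Esterase and carbonic anhydrase genes that rose numbered 2 with median scaling, against 9 in the analysis of all arrays. The calls on Ugt3a1, Gnmt, Gstk1, Gsta1, Pon1 and Srxn1 held under all 14 alternatives. Cat (adjusted p = 0.0631) lost the call without CCl4 replicate 2 and Cat (0.062) without erlotinib 2 mg replicate 1. Cat moved to 0.66 without CCl4 replicate 2. Inmt (adjusted p = 0.0517) and Cat (0.148) lost the call with an intensity trend and robust prior and Cat (0.0564) with the authors' processed values.

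Several bile acid genes rose. Cyp7a1, the rate-limiting enzyme of bile acid synthesis, read 9.29 and 7.55 on the CCl4 arrays and 10.95 and 10.68 on the erlotinib 2 mg arrays, while vehicle arrays read 9.64 and 7.88 and erlotinib 5 mg arrays 9.82 and 9.31. Its CCl4 arrays lay far apart, as did the vehicle arrays, and the erlotinib 2 mg arrays were the highest of the 8. The difference was 2.40 ± 0.46 (adjusted p = 0.00265) from CCl4 and 2.06 ± 0.46 (adjusted p = 0.0204) from vehicle. Cyp8b1, the sterol 12-alpha-hydroxylase that sets the bile acid mix, read 9.26 and 7.15 on the CCl4 arrays and 10.15 and 9.40 on the erlotinib 2 mg arrays, below vehicle at 11.37 and 11.52, a difference of 1.57 ± 0.41 (adjusted p = 0.0232). One CCl4 array came close to the erlotinib arrays. Of 28 bile acid genes, 9 rose and 0 fell (median 0.28), including Nr1h4, the bile acid receptor FXR (0.94 ± 0.13), Cyp27a1 (0.96 ± 0.17), the acyl-CoA synthetase Slc27a5 (0.99 ± 0.12) and the uptake carrier Slco2b1 (0.90 ± 0.12), and 0 passed with median scaling. Bile acid genes that rose numbered 5 without CCl4 replicate 2, against 9 in the analysis of all arrays. Cyp7a1 (adjusted p = 0.0603) and Cyp8b1 (0.282) lost the call without CCl4 replicate 2 and Cyp8b1 (0.276) without erlotinib 2 mg replicate 1. Cyp8b1 moved to 2.63 without CCl4 replicate 1, Cyp7a1 to 1.53 without CCl4 replicate 2, Cyp8b1 to 0.51 without CCl4 replicate 2 and Cyp27a1 to 0.64 without CCl4 replicate 2. Cyp7a1 (adjusted p = 0.272) and Cyp8b1 (0.433) lost the call with an intensity trend and robust prior and Cyp7a1 (0.0576) and Cyp8b1 (0.169) with the authors' processed values.

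Of 37 tested urea cycle and amino acid breakdown genes, 20 rose and 0 fell (54.1%, against 8.57% of all genes), with a median of 0.53, and 10 rose with median scaling. Prodh, the proline dehydrogenase, read 6.78 and 6.64 on the CCl4 arrays and 8.49 and 8.54 on the erlotinib 2 mg arrays, with vehicle at 8.11 and 8.18. Its pairs were tight, the erlotinib arrays were the highest of those compared, and the difference was 1.80 ± 0.11 (adjusted p = 1.44e-07). Afmid, the formamidase of tryptophan breakdown, differed by 1.78 ± 0.17 through its brightest probe, and its other probes gave 0.29 to 1.56. Rises of the urea cycle were of Asl (1.44 ± 0.15), Ass1 (1.12 ± 0.13) and Arg1 (0.53 ± 0.11), and of tyrosine, tryptophan and leucine breakdown of Hpd (1.47 ± 0.22), Haao (1.40 ± 0.13) and Ivd (1.31 ± 0.14). Cps1, the first enzyme of the urea cycle, was at 0.35 ± 0.12 and did not pass (adjusted p = 0.1). Of 18 folate and methionine cycle genes, 8 rose and 0 fell (median 0.41), led by Aldh1l1, the formyltetrahydrofolate dehydrogenase, which read 9.12 and 8.65 on the CCl4 arrays and 11.13 and 10.85 on the erlotinib 2 mg arrays against 10.85 and 10.83 with vehicle (2.11 ± 0.15 (adjusted p = 4.54e-07)), and by Gnmt and the betaine methyltransferase Bhmt (0.96 ± 0.16). Another Aldh1l1 probe under background on every array gave 0.12, and 2 more gave 1.95 and 2.26. Folate cycle genes that rose numbered 3 with median scaling, against 8 in the analysis of all arrays. The calls on Prodh, Afmid, Asl, Ass1, Hpd, Haao, Ivd, Aldh1l1 and Bhmt held under all 14 alternatives. Hpd moved to 0.98 without CCl4 replicate 2.

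Hepatocytes differ along the lobule, with urea synthesis and gluconeogenesis strongest near the portal vein and P450 metabolism and glutamine synthesis near the central vein. Rises were found in both zonal lists. Of 23 pericentral genes, 12 rose and 1 fell (median 0.44), and of 20 periportal genes 7 rose and 1 fell (median 0.31). The difference between these lists was not tested. Pericentral rises outside the P450 list included Oat, ornithine aminotransferase (1.29 ± 0.17), while the amino acid carrier Slc1a4 fell (-0.78 ± 0.15). Lgr5, a Wnt target of the central vein, was under background on every array. The periportal Apoa4, an apolipoprotein, fell (-0.72 ± 0.17) and stayed above vehicle at 10.22 and 9.98 against 7.53 and 8.15. Pericentral genes that rose numbered 7 without CCl4 replicate 2, 7 without erlotinib 2 mg replicate 1 and 4 with median scaling, against 12 in the analysis of all arrays. Periportal genes that rose numbered 2 with median scaling, against 7 in the analysis of all arrays. The call on Oat held under all 14 alternatives. Apoa4 (adjusted p = 0.146) lost the call without CCl4 replicate 1 and Slc1a4 (0.0564) and Apoa4 (0.156) without erlotinib 2 mg replicate 2. Apoa4 (adjusted p = 0.0559) lost the call with the authors' processed values.

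Some genes of lipid synthesis and of lipid oxidation rose. Thrsp, the Spot14 protein of lipogenesis, read 7.50 and 7.38 on the CCl4 arrays and 9.07 and 10.49 on the erlotinib 2 mg arrays, with vehicle at 10.51 and 10.20. Both erlotinib arrays were well above the CCl4 pair, 1 of them at the vehicle level, and the difference was 2.34 ± 0.28 (adjusted p = 5.05e-05). Acss2, the cytosolic acetyl-CoA synthetase, read 7.40 and 7.31 on the CCl4 arrays and 9.73 and 9.35 on the erlotinib 2 mg arrays, a difference of 2.19 ± 0.24 (adjusted p = 2.25e-05) that a second probe, above background on 3 arrays, did not show (0.16). Of 25 fatty acid and triglyceride synthesis genes, 9 rose and 1 fell (median 0.32), among them Mlxipl, the carbohydrate-responsive factor ChREBP (0.91 ± 0.12), Elovl5 (0.84 ± 0.13) and the desaturase Scd1 (0.82 ± 0.12), with a fall of the elongase Elovl1 (-0.57 ± 0.12). Of 31 fatty acid oxidation genes and PPARalpha targets, 12 rose and 0 fell (median 0.35), led by the peroxisomal thiolase Acaa1b (1.43 ± 0.13) and Eci1 (1.01 ± 0.15). Lipid droplet genes were split: Plin2, the droplet coat protein that marks fatty liver (-0.94 ± 0.12), and the lipase Lpl (-1.34 ± 0.15) fell, and the lipases Mgll (1.07 ± 0.13) and Pnpla2 (0.94 ± 0.11) rose. Of 18 cholesterol synthesis genes, Insig1 rose (0.40 ± 0.12) and the others did not pass (5.56% passed, against 8.57% of all genes). Another Insig1 probe, above background on 5 arrays, gave 0.27, and those under background on every array gave -0.005 and -0.006. With the mean of the probes, Insig1 was at 0.17 and did not pass. Synthesis genes that rose numbered 1 with median scaling, against 9 in the analysis of all arrays. Oxidation genes that rose numbered 4 without CCl4 replicate 2, 6 without erlotinib 2 mg replicate 2 and 1 with median scaling, against 12 in the analysis of all arrays. The calls on Acss2, Acaa1b, Plin2 and Lpl held under all 14 alternatives. Insig1 (adjusted p = 0.0741) lost the call without CCl4 replicate 1, Elovl1 (0.0786) and Insig1 (0.282) without CCl4 replicate 2, Elovl1 (0.0507) and Insig1 (0.162) without erlotinib 2 mg replicate 1 and Insig1 (0.165) without erlotinib 2 mg replicate 2. Thrsp (adjusted p = 0.0699) and Insig1 (0.0624) lost the call with an intensity trend and robust prior.

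Of 65 oxidative phosphorylation subunits, 11 rose and 0 fell (16.9%, against 8.57% of all genes, median 0.27). The rises reached 0.68 for Cyc1 and 0.68 for Uqcrc2, both of complex III. Under median scaling 0 passed while the list median was 0.33. Glycolysis and glucose genes went both ways. The pyruvate kinase gene Pkm, typical of proliferating cells (-0.91 ± 0.14) and Ldha (-0.88 ± 0.11) fell, whereas the fructokinase gene Khk (1.02 ± 0.17), the glycogen phosphorylase gene Pygl (0.78 ± 0.12) and the liver glucose carrier Slc2a2 (0.68 ± 0.13) rose. G6pc, the last enzyme of glucose release, read 10.41 and 10.16 on the CCl4 arrays and 10.04 and 9.02 on the erlotinib 2 mg arrays, below vehicle at 11.48 and 11.18, and did not pass against CCl4 (-0.76 ± 0.26, adjusted p = 0.0982). Oxidative phosphorylation genes that rose numbered 7 without CCl4 replicate 2 and 7 without erlotinib 2 mg replicate 1, against 11 in the analysis of all arrays. Glucose genes that rose numbered 2 without CCl4 replicate 2, 3 without erlotinib 2 mg replicate 2 and 0 with median scaling, against 5 in the analysis of all arrays. The call on Pkm held under all 14 alternatives. Slc2a2 (adjusted p = 0.073) lost the call without CCl4 replicate 2.

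Of 41 complement and coagulation genes, which hepatocytes secrete, 10 rose and 2 fell (median 0.27): Klkb1, plasma prekallikrein (1.22 ± 0.14), heparin cofactor II, Serpind1 (0.82 ± 0.15), and the lectin Mbl1 (0.80 ± 0.15) rose, and the fibrinogen chains Fgg and Fga fell. Of 22 hepatocyte transcription factors, Nr1h4, Cebpa (0.70 ± 0.16) and Onecut2 (0.48 ± 0.13) rose and Cebpb fell, while Hnf4a, the master regulator of hepatocyte identity, differed by 0.24 ± 0.15 (adjusted p = 0.489). Alb, albumin, read 6.61 and 7.04 on the CCl4 arrays and 6.99 and 7.20 on the erlotinib 2 mg arrays, a low signal for its probe, and did not pass (0.27 ± 0.16, adjusted p = 0.432). In the iron list, Tmprss6, a protease that curbs hepcidin, rose (0.81 ± 0.17), and the transferrin receptor Tfrc (-0.81 ± 0.17) and the biliverdin reductase Blvrb (-0.59 ± 0.13) fell. Of 36 lysosomal genes, 5 fell and 1 rose (16.7%, against 8.57% of all genes). The falls included Cd63, the protease Lgmn (-1.16 ± 0.14) and the proton pump subunit Atp6ap1 (-0.86 ± 0.13), and the rise was of the cathepsin Ctsf (0.51 ± 0.11). Complement and coagulation genes that rose numbered 6 without CCl4 replicate 2 and 1 with median scaling, against 10 in the analysis of all arrays. Lysosomal genes that fell numbered 3 without CCl4 replicate 1, 3 without erlotinib 2 mg replicate 2 and 2 with median scaling, against 5 in the analysis of all arrays. The calls on Klkb1 and Lgmn held under all 14 alternatives. Cebpa (adjusted p = 0.149), Onecut2 (0.312), Tmprss6 (0.0981), Tfrc (0.126) and Ctsf (0.0939) lost the call without CCl4 replicate 2, Onecut2 (0.151) without erlotinib 2 mg replicate 1 and Cebpa (0.191), Onecut2 (0.103), Tmprss6 (0.0887), Tfrc (0.111) and Ctsf (0.0511) without erlotinib 2 mg replicate 2. Serpind1 moved to 0.53 without CCl4 replicate 2, Tmprss6 to 0.53 without CCl4 replicate 2 and Cebpa to 0.44 without erlotinib 2 mg replicate 2. Cebpa (adjusted p = 0.0687) and Tfrc (0.0537) lost the call with the authors' processed values. Blvrb (0.0791), Onecut2 (0.1345), Fga (0.1119) and Cebpb (0.0544) lost it with an offset of 16.

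Growth hormone sets the male or female pattern of many liver genes. Mup20, a major urinary protein, read 6.79 and 6.74 on the CCl4 arrays and 6.53 and 7.80 on the erlotinib 2 mg arrays, against 10.18 and 9.85 with vehicle. The erlotinib arrays straddled the CCl4 pair, and the difference was 0.40 ± 0.28 (adjusted p = 0.542). Without erlotinib 2 mg replicate 1 it was 1.03 and passed (adjusted p = 0.00749), and without erlotinib 2 mg replicate 2 it was -0.23. Hsd3b5, a male-specific steroid dehydrogenase, read 6.03 and 6.32 on the CCl4 arrays and 6.03 and 6.21 on the erlotinib 2 mg arrays, all 4 under the background limit, against 10.32 and 9.77 with vehicle. Serpina1e, an alpha-1-antitrypsin isoform, read 11.22 and 10.01 on the CCl4 arrays and 8.53 and 9.66 on the erlotinib 2 mg arrays, against 14.19 and 13.76 with vehicle. It fell further from an already low CCl4 level, with a difference of -1.52 ± 0.37 (adjusted p = 0.014). The Mup and Serpina1 genes are families of near copies whose probes may cross-read. Of 23 genes of this list, 1 rose, Cyp8b1, and 2 fell, Serpina1e and Gstp1 (13%, against 8.57% of all genes), with a median of 0.29. Of 12 female-biased genes, Cyp2b13 (1.04 ± 0.31) and Acot3 (0.47 ± 0.13) rose, and of 18 genes of the growth hormone and IGF axis the receptor gene Ghr (0.72 ± 0.14) and Igfals, which carries IGF in serum (0.74 ± 0.16), rose, while Igf1 was at -0.03 ± 0.12 (adjusted p = 0.96). The shares of these 2 lists that passed were 16.7% and 11.1%, against 8.57% of all genes. Serpina1e (adjusted p = 0.2), Cyp2b13 (0.156) and Acot3 (0.0677) lost the call without CCl4 replicate 1, Cyp2b13 (0.164), Acot3 (0.169) and Igfals (0.104) without CCl4 replicate 2, Serpina1e (0.268) and Acot3 (0.0843) without erlotinib 2 mg replicate 1 and Cyp2b13 (0.488), Acot3 (0.162), Ghr (0.0637) and Igfals (0.114) without erlotinib 2 mg replicate 2. Serpina1e moved to -0.92 without CCl4 replicate 1, Serpina1e to -0.96 without erlotinib 2 mg replicate 1, Cyp2b13 to 1.57 without erlotinib 2 mg replicate 1 and Cyp2b13 to 0.52 without erlotinib 2 mg replicate 2. Serpina1e (adjusted p = 0.379) and Cyp2b13 (0.474) lost the call with an intensity trend and robust prior and Serpina1e (0.133), Cyp2b13 (0.24) and Acot3 (0.053) with the authors' processed values.

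Clock output genes differed between replicate arrays as well as between groups. Dbp, a clock-driven transcription factor, read 6.39 and 6.21 on the CCl4 arrays and 7.85 and 10.39 on the erlotinib 2 mg arrays, and vehicle arrays 8.50 and 7.84. Both CCl4 arrays were under background or at its limit, so the rise is given as at least 6.7-fold, and the 2 erlotinib arrays lay far apart. Nr1d1, the repressor REV-ERB alpha, rose (1.32 ± 0.12, and 0.42 from a second probe), and Nfil3, which opposes Dbp at shared sites, fell (-1.05 ± 0.18). The other 14 of 17 clock and output genes did not pass, among them Usp2, which read 6.32 and 6.56 on the CCl4 arrays and 6.57 and 8.71 on the erlotinib 2 mg arrays. The labels do not state the hour at which animals died, so time of day and group cannot be told apart. The calls on Nr1d1 and Nfil3 held under all 14 alternatives. Dbp moved to 1.55 without erlotinib 2 mg replicate 2 and Nfil3 to -0.69 without erlotinib 2 mg replicate 2. Dbp (adjusted p = 0.224) lost the call with an intensity trend and robust prior and Dbp (0.0661) with the authors' processed values.

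**Figure D4:**
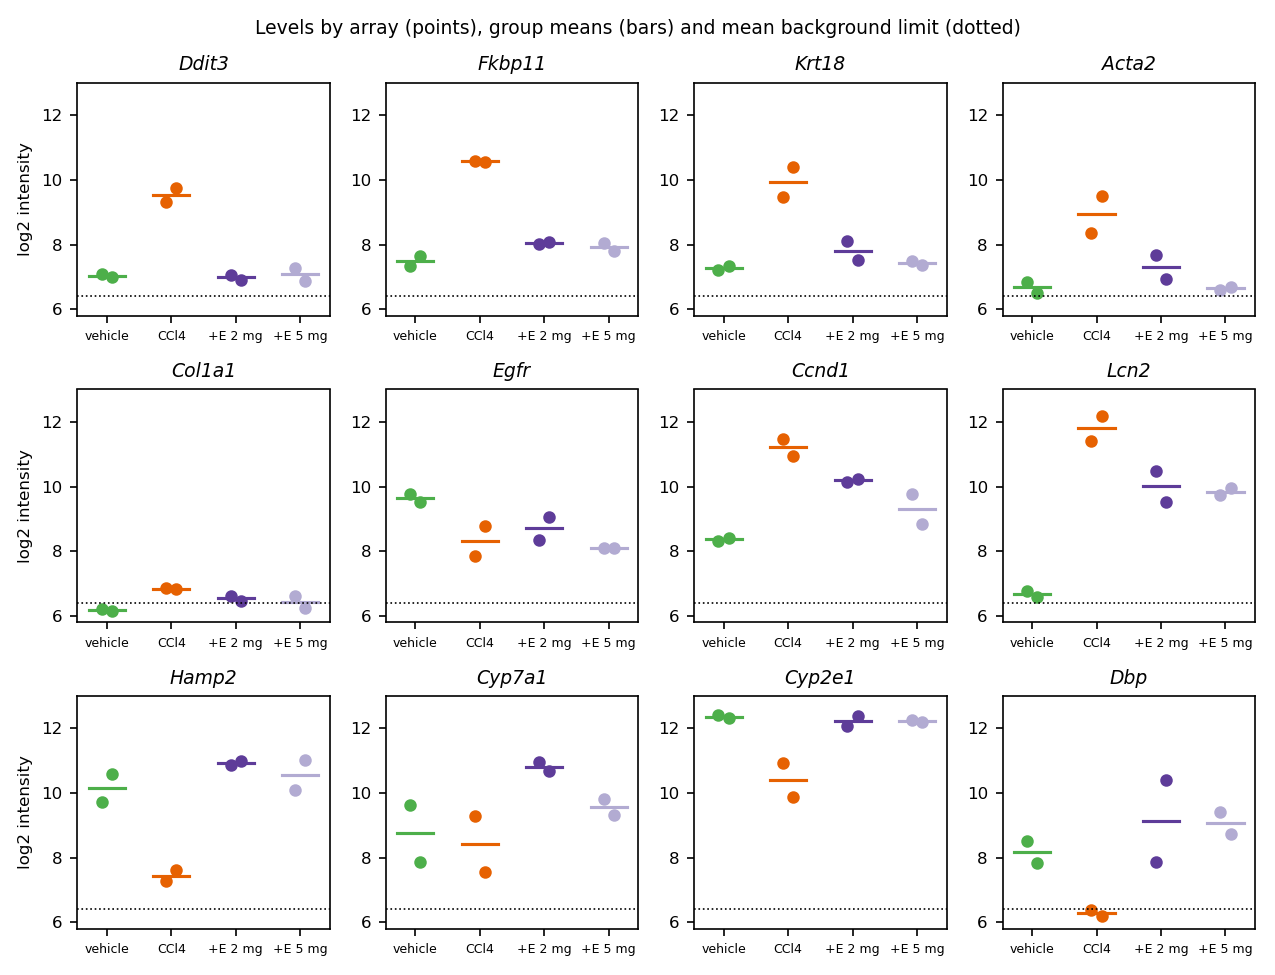
Log2 normalized intensity (y axis) of 12 genes by group (x axis, where +E stands for CCl4 with erlotinib), with each array as a point, the group mean as a bar and the mean background limit as a dotted line. Ddit3 and Cyp2e1 with erlotinib 2 mg stand at the vehicle level, Ccnd1 and Lcn2 between CCl4 and vehicle, Cyp7a1 above vehicle, and Col1a1 close to the background limit throughout.

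The dose comparison asked whether 5 mg differed from 2 mg, and it did not use the CCl4 arrays. Of 11022 genes, 2 passed (0.0181%), both higher with 5 mg, and 503 had an unadjusted p under 0.05. With only the arrays of these 2 doses fitted, 0 genes passed. Acot1, a cytosolic acyl-CoA thioesterase and PPARalpha target, read 8.48 and 8.77 with 2 mg and 9.68 and 9.49 with 5 mg, a difference (5 mg minus 2 mg) of 0.96 ± 0.15 (adjusted p = 0.0428). Cyp4a31, a fatty acid omega-hydroxylase, read 9.09 and 9.0 with 2 mg and 10.05 and 9.74 with 5 mg, a difference of 0.85 ± 0.13 (adjusted p = 0.0428). The doses did not overlap for either gene, as for 32.9% of all genes. Both belong to families of near copies, and both calls were lost in several alternatives, where 0 to 7 genes passed. The next smallest p-values were of genes higher with 5 mg, the immediate early phosphatase Dusp1 (0.93 ± 0.16), the RNA-binding Zfp36 (0.71 ± 0.12) and the plexin Plxna1 (0.76 ± 0.13), which did not pass (adjusted p = 0.0667 for each). The smallest among genes lower with 5 mg were of Ackr1 (-0.51 ± 0.12), Rnf135 (-0.46 ± 0.11), Ccnd1 (-0.88 ± 0.22), Tmem25 (-0.53 ± 0.13) and Cyp2b10 (-0.59 ± 0.15), with adjusted p from 0.483 to 0.544.

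Against vehicle, which shares the erlotinib arrays with the main comparison, 342 genes (3.1%) passed for erlotinib 2 mg, 187 higher (1.7%) and 155 lower (1.41%). Side by side, the genes above stood at different distances from vehicle. Ddit3, Srm, Cyp2e1, Inmt and Prodh differed from vehicle by -0.04, 0.0, -0.15, -0.27 and 0.37, and none of these differences passed, which does not show that the levels were equal. Lcn2, Anxa2 and Ccnd1 remained higher than vehicle, by 3.33, 1.71 and 1.82, and Ly6d, whose vehicle arrays were under background, was at least 5.79-fold higher. Cyp7b1, Mup20 and Serpina1e remained lower than vehicle, with differences of -3.24, -2.85 and -4.88. Hsd3b5, whose erlotinib arrays were under background, was at least 12.5-fold lower than vehicle (adjusted p = 1.17e-09). With median scaling 43 passed, and 69.8% of those were higher with erlotinib 2 mg, against 54.7% with quantile normalization. Without vehicle replicate 1, vehicle replicate 2 and erlotinib 2 mg replicate 1 in turn, 135, 181 and 141 genes passed.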

How the data were processed

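Liver RNA was measured on 8 Illumina mouse BeadArrays, 2 a group, grouped by the treatment in the labels. The deposited table used here holds the authors' bead-summary intensity per probe on a linear scale, without normalization per its header. A second deposited table holds the authors' processed intensity values, by a normalization that the labels do not state. Per array, the 2 tables' ranks correlated at 1.00 or just under, and at most at 0.766 between different arrays. It served as an alternative.

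Intensities were background-corrected (normexp, offset 50), quantile-normalized and log2-transformed with limma 3.58.1 in R 4.3.3. Of 25697 probes, 1719 carry no gene symbol. Symbols of 23962 probes were taken from the RefSeq table through their Entrez identifiers, whether or not the symbol changed. The 15418 probes above the 40th percentile of mean log2 intensity (6.09) were kept, and the brightest probe stood for a gene, which left 11022 genes. One limma model fitted 4 group means over all 8 arrays (4 residual and 11.9 prior degrees of freedom). P-values were Benjamini-Hochberg adjusted over all genes, with a threshold of 0.05. They measure only the spread between these arrays, whose number limits the precision. The labels name no slides or dates, so batch and group cannot be told apart. The background limit is the 99th percentile of 1326 receptor probes. Where every array of a group was under it, a fold is given as "at least", counted from the limit on those arrays. The steps were tested on simulated data.

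The members and gene lists were chosen with earlier results of these data known. Genes were named by rule: the 20 largest rises and falls, up to 6 members per list that passed, up to 2 that opposed their list, a fixed set of 20 genes, and for the doses the 5 smallest p-values each way. Genes named outside this rule, among them Xbp1, Calr, Dusp6, Egr1, Hnf4a, Cps1, Nqo1, Igf1, Gpnmb, Cyp7b1 and Hsd3b5, were chosen after their values were seen. Promoters are those of the RefSeq table (GRCm38.p6), which holds 8887 of the 11022 genes. Alternatives changed the values, background correction, offset, normalization, filter, variance prior, probe rule, arrays fitted and array weights, or left out 1 array.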

Additional observations from a re-analysis of the deposited data

Results flagged for a closer look

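For 2 genes the 2 doses of erlotinib differed by a direct test of one dose against the other. Acot1 was higher with 5 mg than with 2 mg by 0.96 on the log2 scale and Cyp4a31 by 0.85 (limma, adjusted p = 0.0428 for each), and each was higher in both 5 mg arrays than in both 2 mg arrays. Both calls ended in the authors' processed values, among other alternatives.

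The probes without a gene symbol were not used in the comparisons. Of 980 such probes that passed the intensity filter, 85 passed the same test between erlotinib 2 mg and CCl4, 41 higher and 44 lower, and 164 had an unadjusted p under 0.05. Among the genes tested, 945 of 11022 passed (8.57%), a similar share, so the count does not single out these probes.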

How the results depend on the processing

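The 945 differences that passed between erlotinib 2 mg and CCl4 kept their direction under all 14 alternatives wherever the gene was tested. Where 1 array was left out or the same values were refitted, no direction could change, because the groups of all 945 did not overlap. The named genes that passed are among these 945. The count of genes that passed was 852 to 983 under 8 of the 10 alternatives in which no array was left out. It was 574 (296 higher, 278 lower) with an offset of 16 and 157 (59 higher, 98 lower) with median scaling, and 520 to 927 (246 to 432 higher, 274 to 495 lower) with 1 array left out, the lowest without CCl4 replicate 2. Of 215 named genes that passed, 80 did so with median scaling, 157 without CCl4 replicate 2 and 172 to 212 under the other 12, and 0 changed direction. Between the doses, 2 genes passed, both higher with 5 mg. The count was 0 with the authors' processed values, no background correction, an offset of 16, median scaling, probes above background on at least 2 arrays, the mean of the probes and only the arrays compared, 5 (5 higher) without the filter, 4 (4 higher) with an intensity trend, and 0 to 7 (0 to 4 higher, 0 to 3 lower) with 1 array left out. Between erlotinib 2 mg and vehicle, 342 genes passed. The count was 188 (105 higher, 83 lower) with an offset of 16, 43 (30 higher, 13 lower) with median scaling, and 135 to 289 (72 to 151 higher, 63 to 138 lower) with 1 array left out. The causes of these changes were not tested. Where 1 array was left in a group, its spread was taken from the other groups. No paired analysis was possible because the replicate numbers follow accession order and pair no samples. Signal over background limits the 4400 genes under background on every array and named genes such as Col1a1, Timp1, Mmp13, Cxcl14, Tnc and Ccl4.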

Other observations

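Of the 945 genes that passed between erlotinib 2 mg and CCl4, 632 belong to none of the 54 gene lists, and the following were chosen among them after their values were seen. Rises included genes of transport and small-molecule metabolism that hepatocytes or kidney express: Slc47a1, the extruder of organic cations MATE1 (1.50 ± 0.13), Galm, a galactose mutarotase (1.43 ± 0.16), Bbox1, the last enzyme of carnitine synthesis (1.42 ± 0.17), Gamt, which makes creatine (1.41 ± 0.15), and Selenbp1, a methanethiol oxidase (1.40 ± 0.19). Slc47a1 read 9.01 and 8.86 on the CCl4 arrays and 10.38 and 10.50 on the erlotinib 2 mg arrays, against 10.28 and 10.26 with vehicle. The erlotinib arrays stood slightly above vehicle and the CCl4 arrays below both.

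Falls outside the lists included more proteins of the ER, Erp29 (-1.45 ± 0.14), Serp1, which stabilizes membrane proteins at the translocon (-1.34 ± 0.12), and Krtcap2, a subunit of the N-glycosylation complex (-1.16 ± 0.11). Dynll1, a dynein light chain (-1.47 ± 0.16), the brain-type creatine kinase Ckb (-1.38 ± 0.15), the actin-binding Cotl1 (-1.30 ± 0.13), the major vault protein Mvp (-1.29 ± 0.17) and Mfge8, a bridge in the uptake of dying cells (-1.22 ± 0.12), fell as well. Erp29 read 10.78 and 11.19 on the CCl4 arrays and 9.48 and 9.59 on the erlotinib 2 mg arrays, with vehicle at 9.54 and 9.43, so the erlotinib arrays overlapped the vehicle arrays.

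Of 11 oncofetal and tumour-associated genes, Lcn2 and Ly6d fell, Aldh1a1 rose (0.42 ± 0.11) and 8 did not pass. The call on Aldh1a1 ended without any 1 of the 4 arrays compared (adjusted p = 0.0843 to 0.113) and with median scaling. Of 19 apolipoprotein and lipoprotein genes, Apoa4 fell (5.26%, against 8.57% of all genes) and 18 did not pass. Of 2 erythroid markers tested, Alas2, the erythroid enzyme of heme synthesis, rose (0.94 ± 0.23). It lost the call without CCl4 replicate 2 (0.56, adjusted p = 0.259), without erlotinib 2 mg replicate 2 (adjusted p = 0.224) and in 4 more alternatives, the authors' processed values among them. The globin gene Hba-a1 was at -0.11 ± 0.17 and did not pass (adjusted p = 0.843).

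A difference of at least 2-fold between the 2 arrays of a group was seen for 27 of 11022 genes with erlotinib 2 mg, 21 with CCl4, 7 with erlotinib 5 mg and 4 with vehicle. With erlotinib 2 mg, the widest were Dbp at 7.85 and 10.39, Usp2 at 6.57 and 8.71, Mfsd2a, a lysolipid carrier, at 7.17 and 8.79, Alas1, the housekeeping enzyme of heme synthesis, at 8.38 and 10, and the major urinary protein gene Mup2 at 7.52 and 9.13. Both Dbp and Usp2 are clock output genes.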
